A study of Homo sapiens with 9 samples.

Results

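Transcripts of 10 plasma proteins made by hepatocytes were followed in Huh7 cells, an established line of human hepatocellular carcinoma (HCC) cells. The genes were taken by their Entrez numbers and make up 10 of the 20575 genes in the files. They are ALB (213), AFP (174), TTR (7276), RBP4 (5950), TF (7018), HPX (3263), HP (3240), SERPINA1 (5265), AHSG (197) and ORM1 (5004). All 10 were among the 12901 genes tested, those with at least 1 CPM, 1 in 1000000 counted reads, in at least 3 of the 9 samples. RNA was sequenced from 3 groups of 3 replicates, transfected with a control siRNA (siControl), siRNA against LATS1 (siLATS1) or siRNA against LATS2 (siLATS2), and collected 48 h later. Transfection with RNAiMAX and growth in high-glucose DMEM with serum were common to the 3 groups, which differ only in the siRNA as labelled. The Methods of the study describe the sequenced RNA as coming from transfected cells that were also treated with sorafenib, a kinase inhibitor used in HCC. The labels of these 9 samples name no drug, so whether the cells had received it is not settled here. One tumour line is the only model here, and a knockdown leaves part of the target mRNA in the cells. Levels are given as CPM scaled between libraries by TMM, the trimmed mean of M values, with the mean ± SD over n = 3 samples.

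Hepatocytes secrete most of the proteins of blood plasma, and the transcripts of these proteins are among the most abundant in liver. Albumin and alpha-fetoprotein are related carriers encoded side by side. Alpha-fetoprotein is made by the fetal liver, is silenced after birth and is made again by many HCCs, so the pair is read as a sign of adult against oncofetal state. Transcription of these genes depends on factors such as HNF4A and the C/EBP family, and inflammatory cytokines raise some of the proteins (haptoglobin, orosomucoid) and lower others (albumin, transthyretin, fetuin-A). LATS1 and LATS2 are kinases of the Hippo pathway that restrain YAP and TAZ, co-activators known to oppose hepatocyte differentiation. The comparison of the 3 siRNA groups asks whether the hepatocyte program, as read from these transcripts, differed after knockdown of either kinase.

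The sequences that define the knockdown are shown first, since the contrast rests on them. The siLATS1 pool held 4 RNAs of 19 bases, each with an exact match in transcripts of LATS1 alone, and in transcripts of 0 of the 10 plasma protein genes. No stretch of 15 bases of any of them occurred in a transcript of the 10 genes either.
siLATS1, RNA 1: ggugaagucugucuagcaa
siLATS1, RNA 2: uagcauggauuucaguaau
siLATS1, RNA 3: gguaguucgucuauauuau
siLATS1, RNA 4: gaaugguacuggacaaacu
LATS1 mRNA was at 110.0 CPM, 55.2 CPM and 62.9 CPM in siControl replicates 1, 2 and 3. It was at 27.1 CPM, 20.1 CPM and 15.6 CPM in siLATS1, and at 54.7 CPM, 78.6 CPM and 51.2 CPM in siLATS2. All siLATS1 samples lay below all others. The log2 fold change of siLATS1 against siControl was -1.78 ± 0.31 (SE; adjusted p = 0.126 in limma), and -1.50 ± 0.26 (SE; adjusted p = 0.0660) without siControl replicate 1. Of the 4 RNAs of the siLATS2 pool, 3 had an exact match, in transcripts of LATS2 alone, and RNA 1 had none in the transcripts searched. LATS2 mRNA was not analysed here, so the siLATS2 knockdown was not checked at the mRNA level, and siLATS2 below names the siRNA group as labelled.

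The promoters of the members described in most depth follow, as RefSeq gives them for GRCh38.p14. Of the 10 genes, 8 had an entry, and TTR and HP did not. Each run holds the 250 bases before the transcript start, 5′ to 3′ on the strand of the gene. Capitals mark matches, on either strand, to the hexamer GTTAAT, the CCAAT box (also read as ATTGG), the TATA box TATAAA and the HNF4 half-site CAAAGT (also read as ACTTTG).
ALB (chr4:73404037-73404286, plus strand): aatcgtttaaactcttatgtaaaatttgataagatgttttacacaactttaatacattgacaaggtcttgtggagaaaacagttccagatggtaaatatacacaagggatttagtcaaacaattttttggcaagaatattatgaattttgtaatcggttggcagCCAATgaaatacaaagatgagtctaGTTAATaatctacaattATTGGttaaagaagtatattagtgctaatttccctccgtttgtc
AFP (chr4:73435971-73436220, plus strand): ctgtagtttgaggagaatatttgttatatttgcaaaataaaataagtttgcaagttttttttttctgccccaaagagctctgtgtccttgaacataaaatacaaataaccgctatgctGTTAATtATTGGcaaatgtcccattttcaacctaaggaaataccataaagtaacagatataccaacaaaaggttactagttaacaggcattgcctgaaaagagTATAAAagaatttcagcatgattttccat
SERPINA1 (chr14:94388603-94388852, minus strand): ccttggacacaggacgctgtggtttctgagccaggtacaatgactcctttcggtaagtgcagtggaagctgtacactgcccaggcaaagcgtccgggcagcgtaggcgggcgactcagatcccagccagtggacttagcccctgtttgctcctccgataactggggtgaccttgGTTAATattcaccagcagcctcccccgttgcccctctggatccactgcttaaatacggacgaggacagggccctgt
AHSG (chr3:186612810-186613059, plus strand): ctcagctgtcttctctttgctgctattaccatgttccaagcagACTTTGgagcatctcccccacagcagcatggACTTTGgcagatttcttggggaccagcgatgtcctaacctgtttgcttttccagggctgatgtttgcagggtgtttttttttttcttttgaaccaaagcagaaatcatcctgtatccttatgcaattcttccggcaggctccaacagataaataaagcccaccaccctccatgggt
ORM1 (chr9:114322848-114323097, plus strand): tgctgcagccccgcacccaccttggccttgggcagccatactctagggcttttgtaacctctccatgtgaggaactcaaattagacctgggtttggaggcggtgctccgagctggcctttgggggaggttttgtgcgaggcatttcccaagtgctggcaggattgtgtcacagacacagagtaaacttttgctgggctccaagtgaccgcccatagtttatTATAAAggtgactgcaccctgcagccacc
GTTAAT occurred in the promoters of ALB, AFP and SERPINA1, which are 3 of the 8 members, and in 6.25% of all 34796 promoters of the same length. Its first base lay 61 bases before the start of ALB, 132 bases before that of AFP and 76 bases before that of SERPINA1. In AFP it stood 1 base ahead of a CCAAT box. CCAAT was found in 4 of the 8 members and in 32% of all promoters. TATAAA was found in AFP, ORM1 and RBP4, against 10.8% of all promoters, and lay 29, 29 and 31 bases before the start. CAAAGT was found in AHSG alone among the 8, at 2 places, and in 10.3% of all promoters. CATTCC, the element bound by the TEAD partners of YAP, was found in TF and HPX, in none of the 5 printed runs, and in 11.9% of all promoters. A match to these letters is a description of the sequence and not a binding site.

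One library stood apart. Over the tested genes, siControl replicate 1 correlated with the other siControl samples at r = 0.859 and 0.866, against 0.995 between these. It held 4369 genes without a read, whereas the other 8 libraries held 3369 to 3804, and its median CPM was 3.49 against 5.62 to 7.39. Its depth of 23788360 counted reads lay within the range of 23547579 to 32193229 reads over all libraries. Calls that rest on siControl are therefore given with and without it. Of 10 hepatocyte markers, 9 passed the filter, with APOB at up to 4572 CPM and CPS1 at 1.07 to 1.68 CPM. The remaining one, TDO2, reached at most 0.273 CPM. Of the leukocyte and endothelial markers, CD3E, CDH5 and VWF stayed at or below 0.124 CPM and PTPRC at or below 1.03 CPM. CD14 reached 12.1 CPM and PECAM1 2.72 CPM, and both passed the filter. Of the biliary and fibroblast markers, KRT19 reached 274 CPM, SOX9 125 CPM, EPCAM 80.9 CPM and COL1A2 23.0 CPM. KRT7 and DCN stayed at or below 0.1865 CPM.

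Huh7 cells carried far more AFP and ALB mRNA than any other member. Together these 2 genes took 0.767% to 1.56% of all counted reads, and the 10 genes together took 0.955% to 1.71%. Per kilobase of coding length, the median levels over the 9 samples were 3109.5 CPM for AFP, 2319 CPM for ALB, 624 CPM for TF, 329 CPM for SERPINA1 and 296 CPM for RBP4. A lower tier held TTR at 81.6 CPM, ORM1 at 58.0 CPM, AHSG at 32.9 CPM and HPX at 30.5 CPM per kilobase. HP stood last at 1.43 CPM per kilobase, which is 21 to 70 reads per library. AFP exceeded ALB in 9 of 9 samples, ALB exceeded TF in 9 of 9, and TF exceeded SERPINA1 in 9 of 9. SERPINA1 and RBP4 changed places between samples, SERPINA1 being higher in 3 of 9. TTR exceeded ORM1 in 7 of 9 samples and AHSG exceeded HPX in 6 of 9, so the order within these pairs did not hold in every sample. Coding length was used because the reference transcript of TF, at 20166 bases, is mostly noncoding. Relative to the whole reference transcript, the median for TF would be 64.8 CPM per kilobase, below SERPINA1 at 137 and RBP4 at 167.

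**Figure D1:**
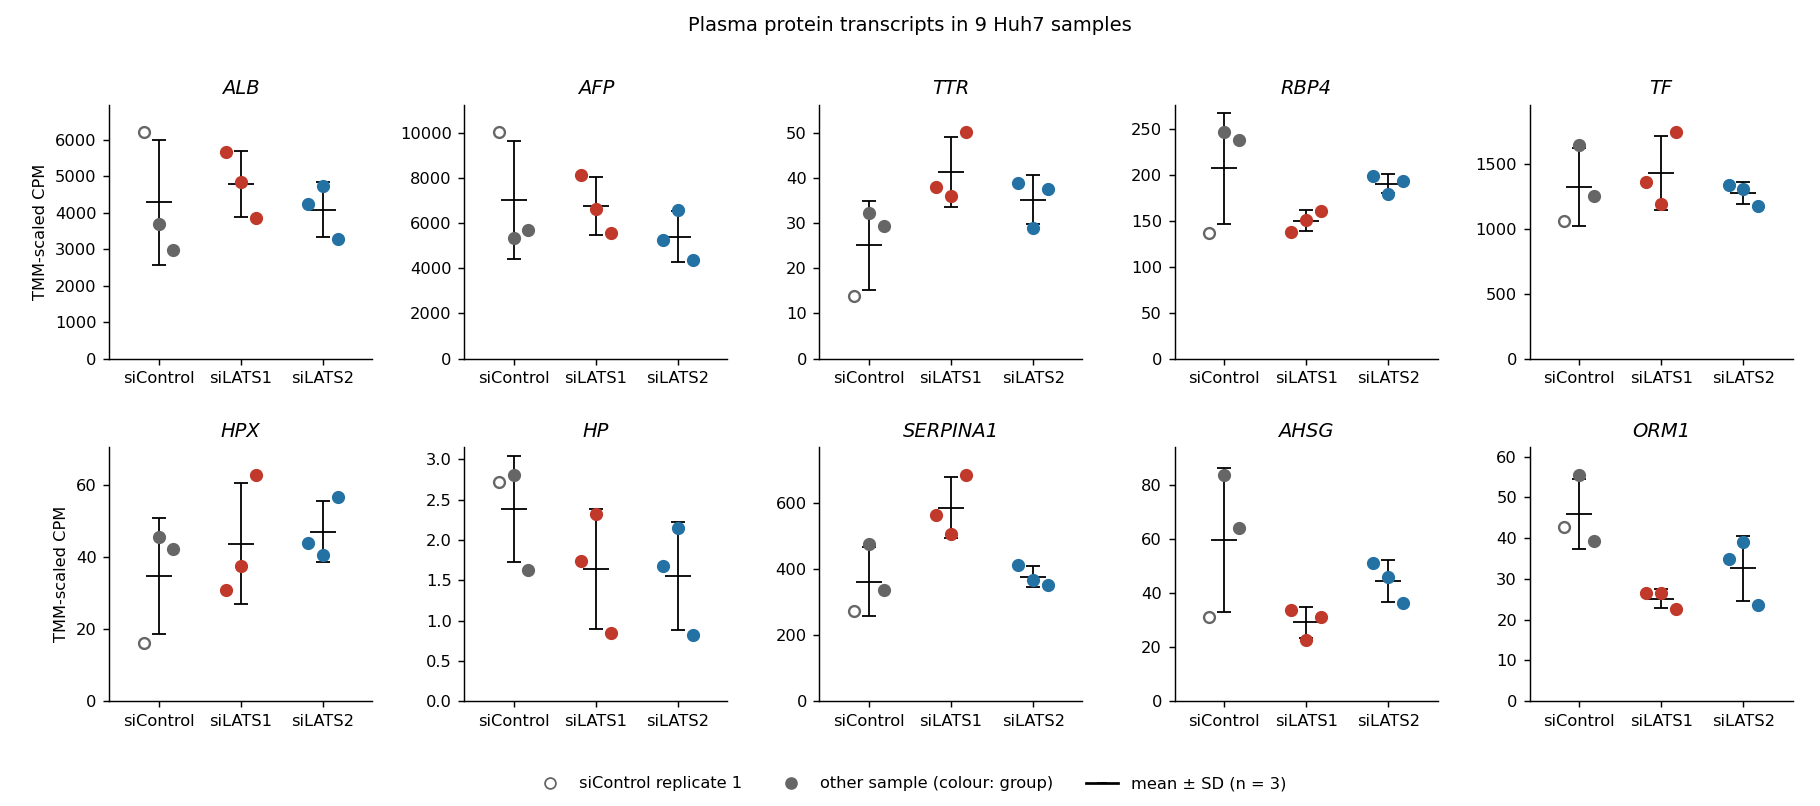
TMM-scaled CPM (linear axes from 0) of the 10 plasma protein genes in the 3 siRNA groups, with 1 point per sample and the mean ± SD over 3 samples; the open point is siControl replicate 1. That sample is the highest of its group for ALB and AFP and the lowest for TTR, RBP4, TF, HPX, SERPINA1 and AHSG, while all siLATS1 samples lie below all siControl samples for ORM1 and above them for TTR and SERPINA1.

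After siLATS1, 4 of the 10 genes passed the threshold used by the study, an unadjusted p under 0.05 and an absolute log2 fold change of 0.58 or more. SERPINA1 and TTR rose, and ORM1 and AHSG fell. Of all tested genes 2.91% passed this threshold, 2.33% upward and 0.589% downward. The same 4 members, and 5.78% of all genes, had an unadjusted p under 0.05 whatever the fold. After Benjamini-Hochberg adjustment in limma 0 of the 10 passed, where 0.101% of all genes did, and the smallest adjusted p of a member was 0.40. The quasi-likelihood test of edgeR on the recovered reads also gave 0 adjusted calls among the members, and DESeq2 gave 1, ORM1. All siLATS1 samples lay above all siControl samples for 2 of the 10 genes, TTR and SERPINA1, and for 5.77% of all tested genes. They lay below for 1 of the 10, ORM1, and for 2.71% of all genes, 8.48% in both directions. The median log2 fold change of the 10 genes was 0.057 against 0.019 over all tested genes, with 5 of 10 above 0. In bulk RNA, fewer cells that express a gene and less mRNA per cell cannot be told apart.

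SERPINA1, on chromosome 14 (chr14:94843084-94854939, minus strand, GRCh37), encodes alpha-1 antitrypsin, the main inhibitor of neutrophil elastase in plasma. It was at 273 CPM, 475 CPM and 335 CPM in siControl replicates 1, 2 and 3. It was at 564 CPM, 506 CPM and 685 CPM in siLATS1, and at 412 CPM, 365 CPM and 351 CPM in siLATS2. All siLATS1 samples lay above all siControl and all siLATS2 samples. SERPINA1 rose from 361 ± 104 CPM to 585 ± 91.6 CPM, a log2 fold change of 0.72 ± 0.21 (SE; adjusted p = 0.50). With siControl replicate 1 left out, the log2 fold change was 0.52 ± 0.18 (SE), under the fold limit.

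SERPINA1 lies in a cluster of related serpins, and 4 serpin neighbours within 200 kb on chromosome 14 passed the filter beside it. So did PPP4R4 in the same window, which had a log2 fold change of -0.12 and was not called. SERPINA6 (corticosteroid-binding globulin) rose by a log2 fold change of 0.71, from 18.9 ± 5.66 CPM to 30.9 ± 6.31 CPM, but was at 0.46 and not called without siControl replicate 1. SERPINA4 (kallistatin) rose by 0.84, from 4.57 CPM to 9.19 CPM, and by 0.66 in that fit. SERPINA5 (protein C inhibitor), whose annotated span overlaps that of SERPINA4, had a log2 fold change of 0.37 ± 0.20 (SE), and SERPINA10 (protein Z-dependent inhibitor) one of 0.046 ± 0.19 (SE), and neither was called. The 2 called neighbours had adjusted p-values of 0.71 and 0.60, and 2.91% of all tested genes were called.

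TTR (chr18:29171840-29178784, plus strand) encodes transthyretin, which carries thyroxine and binds the retinol carrier RBP4. It was at 13.8 CPM, 32.2 CPM and 29.4 CPM in siControl, at 38.0 CPM, 36.0 CPM and 50.2 CPM in siLATS1, and at 39.0 CPM, 29.1 CPM and 37.6 CPM in siLATS2. The siLATS1 samples lay above all siControl samples, of which replicate 1 was the lowest of all 9. TTR rose from 25.1 ± 9.92 CPM to 41.4 ± 7.71 CPM, a log2 fold change of 0.77 ± 0.31 (SE; adjusted p = 0.80). When siControl replicate 1 was left out it was 0.39 ± 0.19 (SE), and TTR was no longer called. The call was also absent with edgeR on the recovered reads, where the log2 fold change was 0.67, and in 3 further fits that each left out 1 library of siLATS1 or siLATS2 (0.63 to 0.81).

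ORM1 (chr9:117085378-117088759, plus strand) encodes orosomucoid, an acute phase glycoprotein that binds basic drugs. It was at 42.7 CPM, 55.6 CPM and 39.4 CPM in siControl, at 26.5 CPM, 26.5 CPM and 22.6 CPM in siLATS1, and at 35.0 CPM, 39.1 CPM and 23.7 CPM in siLATS2. Every siLATS1 and every siLATS2 sample lay below every siControl sample, the closest pair being 39.4 CPM in siControl and 39.1 CPM in siLATS2. ORM1 fell in siLATS1 from 45.9 ± 8.55 CPM to 25.2 ± 2.24 CPM, a log2 fold change of -0.83 ± 0.22 (SE; adjusted p = 0.40). It was -0.89 ± 0.23 (SE) without siControl replicate 1 and stayed called. With DESeq2 the adjusted p was 0.0269, the lowest among all settings tried, which ran up to 1.

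ORM2, the adjacent and nearly identical gene, shares sequence with ORM1, so uniquely mapped reads may be divided unevenly between the pair. ORM2 fell in siLATS1, with a log2 fold change of -0.72 ± 0.27 (SE; adjusted p = 0.71), and of -1.01 without siControl replicate 1 (adjusted p = 0.0767). The sum of both was 60.5, 94.0 and 67.6 CPM in siControl and 40.8, 44.2 and 38.6 CPM in siLATS1, with no overlap. The log2 difference of this sum was -0.81, with an exact two-sided permutation p of 0.1, the smallest that 3 against 3 allows. ORM1 took 55.5% to 70.5% of the sum over the 9 samples.

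AHSG (chr3:186330849-186339107, plus strand) encodes fetuin-A, an inhibitor of calcification that is lowered in inflammation. It was at 31.2 CPM, 83.7 CPM and 64.2 CPM in siControl, at 33.7 CPM, 22.8 CPM and 31.0 CPM in siLATS1, and at 51.2 CPM, 45.9 CPM and 36.2 CPM in siLATS2. The siLATS1 values overlapped siControl only through siControl replicate 1. AHSG fell from 59.7 ± 26.6 CPM to 29.2 ± 5.70 CPM, a log2 fold change of -0.92 ± 0.35 (SE; adjusted p = 0.71). Without siControl replicate 1 it was -1.33 ± 0.22 (SE; adjusted p = 0.0533), with no overlap. The call ended without siControl replicate 2 (-0.67), without siControl replicate 3 (-0.82) and without siLATS1 replicate 2 (-0.76).

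The retinol carrier RBP4 (chr10:95351451-95360992, minus strand) had a pattern close to that of AHSG. It was at 137 CPM, 246 CPM and 237 CPM in siControl, at 138 CPM, 151 CPM and 160.4 CPM in siLATS1, and at 199 CPM, 179 CPM and 193 CPM in siLATS2. The log2 fold change in siLATS1 was -0.42 ± 0.22 (SE; adjusted p = 0.98), short of the threshold. Leaving out siControl replicate 1 gave -0.70 ± 0.12 (SE; adjusted p = 0.0576), past the unadjusted threshold and with no overlap. In that fit 5.66% of all tested genes were called, and 3 of the 10 members, AHSG, ORM1 and RBP4, all lower in siLATS1.

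The albumin pair was not called in either knockdown. ALB (chr4:74270004-74287199, plus strand), the main protein of plasma, was at 6210.5 CPM, 3678 CPM and 2962 CPM in siControl. It was at 5663 CPM, 4851 CPM and 3866 CPM in siLATS1, and at 4237 CPM, 4743 CPM and 3269.7 CPM in siLATS2. The 3 groups overlapped. The log2 fold change was 0.22 (95% interval -0.44 to 0.88) in siLATS1 and -0.014 (-0.67 to 0.65) in siLATS2. Against the other siControl samples alone, all siLATS1 samples lay higher, with a log2 fold change of 0.51 ± 0.21 (SE) that was under the fold limit.

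AFP (chr4:74301938-74321891, plus strand) was at 10032 CPM, 5334 CPM and 5681 CPM in siControl, at 8108 CPM, 6617 CPM and 5563 CPM in siLATS1, and at 5246 CPM, 6586 CPM and 4379 CPM in siLATS2. The groups overlapped, and siControl replicate 1 was the highest sample for AFP as for ALB. The log2 fold change was -0.0089 (95% interval -0.64 to 0.62) in siLATS1 and -0.34 (-0.97 to 0.30) in siLATS2. The sign in siLATS1 was positive without siControl replicate 1 (0.27) and with the CPM as deposited (0.081).

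The ratio of AFP to ALB within a sample does not depend on the scaling between samples and sets the oncofetal carrier against the adult one. Its log2 value was 0.69, 0.54 and 0.94 in siControl, 0.52, 0.45 and 0.52 in siLATS1, and 0.31, 0.47 and 0.42 in siLATS2. All samples of both knockdowns lay below all siControl samples, the closest being 0.52 in siLATS1 and 0.54 in siControl. The difference from siControl was -0.23 for siLATS1 and -0.32 for siLATS2, and -0.24 and -0.34 without siControl replicate 1. It shrank to -0.12 and -0.21 without siControl replicate 3, and widened to -0.32 and -0.41 without siControl replicate 2. Both had an exact two-sided permutation p of 0.1, the smallest this design can give, so neither reached 0.05. The 2 comparisons share the siControl samples. Between siLATS1 and siLATS2 the difference was 0.096 (exact permutation p = 0.2), with overlapping groups. ALB thus made up 34.3% to 40.8% of the reads of the pair in siControl, 41.0% to 42.3% in siLATS1 and 41.9% to 44.7% in siLATS2.

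**Figure D2:**
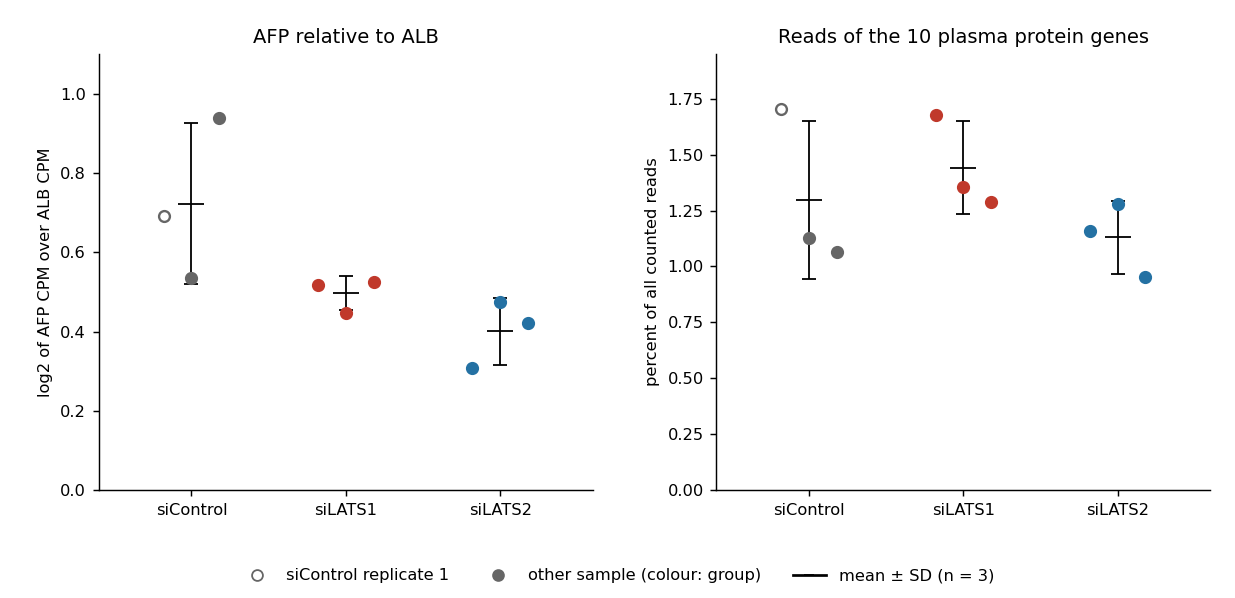
Left, log2 of the CPM of AFP over the CPM of ALB in each sample; right, the percent of all counted reads taken by the 10 plasma protein genes; points are samples, bars the mean ± SD over 3 samples, and the open point is siControl replicate 1. Every siLATS1 and siLATS2 sample lies below the lowest siControl ratio of 0.54, whereas the read shares of the 3 groups overlap between 0.955% and 1.71%.

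AFM and GC, the other members of the albumin family on chromosome 4, encode afamin, a vitamin E carrier, and the vitamin D-binding protein. AFM, which follows AFP in the cluster, was at 2.42 CPM, 1.37 CPM and 0.848 CPM in siControl and at 5.61 CPM, 5.22 CPM and 5.66 CPM in siLATS1. It was at 1.40 CPM, 2.11 CPM and 2.01 CPM in siLATS2, so the siLATS1 samples stood above all others. AFM rose in siLATS1 by a log2 fold change of 1.40 ± 0.23 (SE; adjusted p = 0.0959), and without siControl replicate 1 by 1.63 (adjusted p = 0.0128). GC, at 88.7 ± 32.9 CPM in siControl, had a log2 fold change of 0.36 ± 0.26 (SE) and was not called.

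Among the iron and heme scavengers no gene was called. TF (chr3:133465237-133515485, plus strand), the iron carrier of plasma, was at 1060.1 CPM, 1649.6 CPM and 1253 CPM in siControl, at 1359 CPM, 1191 CPM and 1749 CPM in siLATS1, and at 1338 CPM, 1308 CPM and 1179 CPM in siLATS2. Its log2 fold changes were 0.12 (95% interval -0.34 to 0.58) in siLATS1 and -0.029 (-0.49 to 0.43) in siLATS2, the narrowest intervals of the 10 genes. HPX (chr11:6452279-6462217, minus strand), which binds heme, was at 16.3 CPM, 45.5 CPM and 42.3 CPM in siControl, at 30.9 CPM, 37.4 CPM and 62.9 CPM in siLATS1, and at 43.9 CPM, 40.6 CPM and 56.6 CPM in siLATS2. The groups overlapped, and the log2 fold changes of HPX, 0.39 in siLATS1 and 0.54 in siLATS2, became -0.082 and 0.068 without siControl replicate 1. HP (chr16:72088404-72094954, plus strand), which binds free hemoglobin, was at 2.72 CPM, 2.81 CPM and 1.62 CPM in siControl, at 1.74 CPM, 2.32 CPM and 0.843 CPM in siLATS1, and at 1.68 CPM, 2.15 CPM and 0.825 CPM in siLATS2. Its log2 fold changes were -0.38 ± 0.29 (SE) and -0.42 ± 0.29 (SE), and reads of HP can be lost or shared with HPR, a near-identical neighbour listed at no more than 0.834 CPM.

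**Figure D3:**
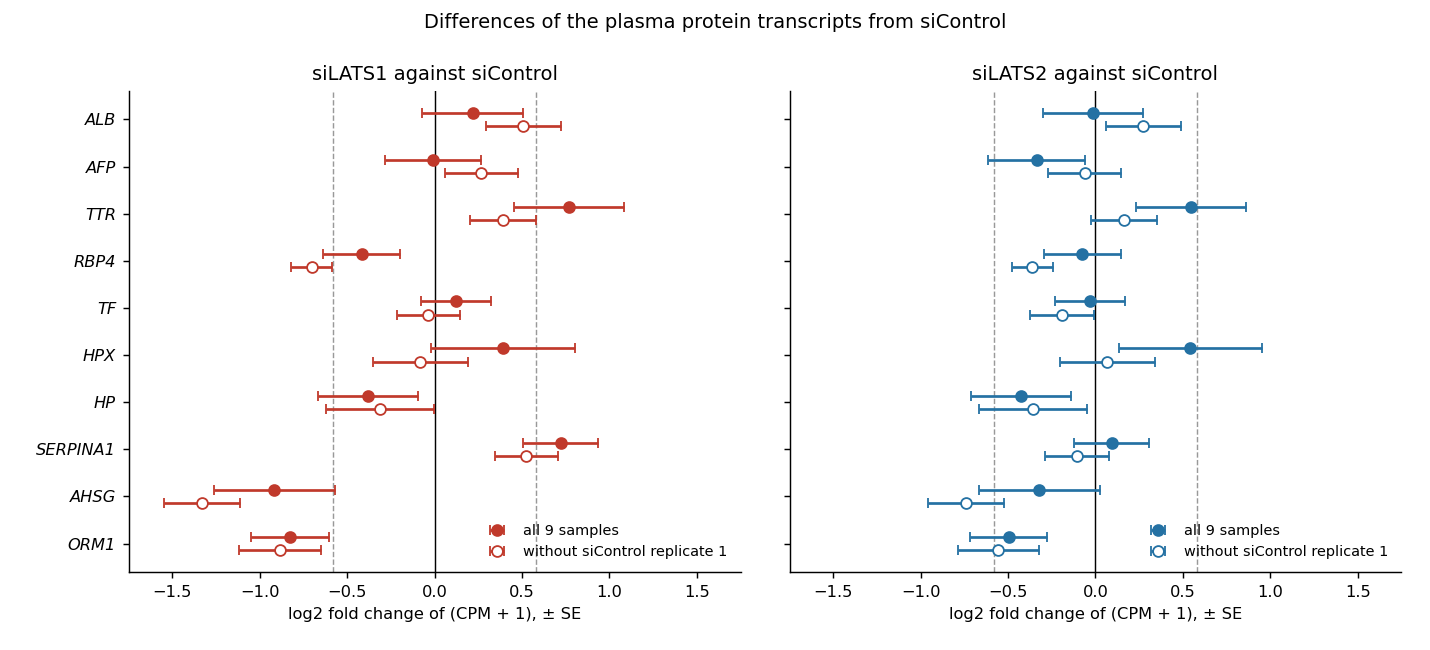
Log2 fold change of CPM + 1 with its SE for each plasma protein gene, for siLATS1 (left) and siLATS2 (right) against siControl; filled points use all 9 samples, open points leave out siControl replicate 1, and dashed lines mark the fold limit of 0.58. SERPINA1 and TTR lie above the limit and ORM1 and AHSG below it in siLATS1 with all samples, while no filled point passes the limit in siLATS2.

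After siLATS2, 0 of the 10 genes passed the unadjusted threshold in limma, where 0.271% of all tested genes did, 0.217% upward and 0.0543% downward. The members with an unadjusted p under 0.05, before the fold limit, also numbered 0, against 0.853% of all genes. Neither edgeR nor DESeq2 called a member, although ORM1 had an unadjusted p under 0.05 in both, at log2 fold changes of -0.53 and -0.51, under the fold limit. The largest values were 0.55 for TTR, 0.54 for HPX and -0.50 ± 0.22 (SE) for ORM1. ORM1 was the 1 member whose samples all lay below siControl, as did 0.643% of all genes, and 0 members lay above, as did 2.87% (3.51% in both directions). In the fit without siControl replicate 1, AHSG passed the unadjusted threshold with a log2 fold change of -0.74 ± 0.22 (SE; adjusted p = 0.999), where 0.535% of all genes did. RBP4 was at -0.36 ± 0.12 (SE) there, under the fold limit. ORM1 passed the unadjusted threshold without siControl replicate 3 (-0.61, adjusted p = 0.76) and without siLATS2 replicate 2 (-0.65, adjusted p = 0.80).

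Compared directly, siLATS1 and siLATS2 differed at the unadjusted threshold in 1 of the 10 genes, SERPINA1, against 1.86% of all tested genes (1.34% higher and 0.519% lower in siLATS1). SERPINA1 was also the 1 member with an unadjusted p under 0.05 whatever the fold, against 3.91% of all genes. It was higher in siLATS1 by a log2 fold change of 0.63 ± 0.21 (SE; adjusted p = 0.89), and was not called without siLATS1 replicate 3 (0.52) or without siLATS2 replicate 3 (0.575). AHSG and RBP4 lay lower in all siLATS1 than in all siLATS2 samples, with log2 fold changes of -0.60 ± 0.35 (SE) and -0.34 ± 0.22 (SE), and were not called. Without siControl replicate 1, a library of neither group, AHSG was called too (-0.59 ± 0.19, SE; adjusted p = 0.43), making 2 of the 10 against 2.39% of all genes. All siLATS1 samples lay above all siLATS2 samples for 5.8% of all genes and below them for 6.63%, 12.4% together, which sets the background for these 3 members. For the other members the intervals of the difference spanned 0. That of AFP ran from -0.31 to 0.96 and that of ALB from -0.43 to 0.89.

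The members varied together across samples in part. Of 45 pairs, 3 had an adjusted p under 0.05 for Pearson's r over the 9 samples in exact permutation tests, and 0 for Spearman's rho. ALB and AFP were positively correlated (r = 0.872, permutation p = 0.00182, adjusted 0.0274; rho = 0.783, permutation p = 0.0172, adjusted 0.12). AHSG and RBP4 did likewise (r = 0.881, permutation p = 0.00177, adjusted 0.0274; rho = 0.85, permutation p = 0.00607, adjusted 0.0911). AFP and HPX ran opposite ways (r = -0.909, permutation p = 0.000893, adjusted 0.0274; rho = -0.883, permutation p = 0.00308, adjusted 0.0911). Without the 2 samples farthest from the median of the first gene, r was 0.962, 0.68 and -0.66. Within groups, as deviations from the group means, it was 0.943, 0.812 and -0.954. The genes outside the 10 whose log2 levels followed ALB most closely over the 9 samples were ZNF571-AS1 (r = 0.986), CTNNB1 (0.978), LMNB1 (0.972), DNAJC27 (0.971) and LRCH3 (0.970). For AFP they were RAPH1 (r = 0.997), C2CD5 (0.994), TAB2 (0.993), RPS6KA3 (0.990) and MRFAP1L1 (0.988). The permutations ran over all 9 samples without regard to group, so their p-values do not measure variation among replicates alone. These values are a description of 9 libraries that share the outlying siControl replicate 1.

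Other secreted liver proteins moved in both directions after siLATS1. Of 36 such genes, 23 passed the filter on low values, of which 7 rose and 3 fell. The median log2 fold change of the 23 was 0.41 against 0.019 over all tested genes, of which 2.91% were called. The list was chosen with earlier results of these data known, so this contrast is only a description. VTN, the adhesion protein vitronectin, was at 15.9 CPM, 128 CPM and 118 CPM in siControl and at 177 CPM, 219 CPM and 452 CPM in siLATS1. Its log2 fold change was 2.03 with all samples and 1.06 without siControl replicate 1. AGT (angiotensinogen) rose by 0.97, PON1 (paraoxonase, carried on HDL) by 0.92 and SERPINF1 by 0.72, beside AFM, SERPINA4 and SERPINA6. SAA4, a constitutive serum amyloid A, fell from 49.3 CPM to 25.1 CPM (log2 fold change -0.96 ± 0.27, SE), and KNG1, the kininogen gene, fell by 0.86 on the log2 scale, beside ORM2. The classical acute phase genes CRP, SAA1 and SAA2 stayed at or below 0.264 CPM in every sample. After adjustment 0 of the 23 passed. In the fit without siControl replicate 1, 6 rose and 3 fell, the median was 0.32, and 2, AFM and PON1, passed after adjustment. Calls were lost there by AGT (0.52), SERPINF1 (0.39), SERPINA6 (0.46) and KNG1 (-0.61), and gained by GC (0.62) and FGL1 (0.85), which rose, and LRG1 (-0.62), which fell. After siLATS2, 0 of the 23 passed the unadjusted threshold, where 0.271% of all tested genes did. Against siLATS2, siLATS1 was higher in AFM, GC and PON1 and lower in SAA4. Of all tested genes 1.34% were higher and 0.519% lower in that comparison.

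Among the receptors and partners of the plasma proteins described here, TFR2 rose in siLATS1 and 0 fell. Over all tested genes 2.33% rose and 0.589% fell at the same threshold. TFR2, the hepatocyte receptor that senses iron-loaded transferrin, rose from 2.62 CPM to 7.48 CPM (log2 fold change 1.27 ± 0.41, SE; adjusted p = 0.57 in limma). Without siControl replicate 1 it was 0.87 and stayed called, and ASGR2, a subunit of the asialoglycoprotein receptor, fell (-0.61, against 0.026 with all samples). In that fit 5.66% of all tested genes were called. TFRC, the transferrin receptor that takes up iron in most cells, was at 818 CPM and 623 CPM (-0.39, adjusted p = 0.98). CD163 and STRA6, the receptors for haptoglobin-hemoglobin and for RBP4, were listed at 0 in all 9 samples.

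Of the 14 tested oncofetal genes beside AFP, SPINK1 and IGF2 rose in siLATS1 and 0 fell, with a median log2 fold change of 0.023. Over all tested genes 2.33% rose and 0.589% fell, and the median was 0.019. SPINK1, a trypsin inhibitor raised in many HCCs, was at 371 CPM, 333 CPM and 299 CPM in siControl and at 479 CPM, 704 CPM and 596 CPM in siLATS1. With no overlap, its log2 fold change was 0.81 ± 0.16 (SE; adjusted p = 0.19), and 0.68 against siLATS2. IGF2, a fetal growth factor, had a log2 fold change of 0.74 ± 0.32 (SE), and of 0.40, not called, without siControl replicate 1. GPC3, a membrane glypican used as an HCC marker, was at 654 CPM and 822 CPM (0.35) and was not called. The noncoding H19 was at -0.51 against siControl, and fell when siControl replicate 1 was left out (-0.92, adjusted p = 0.17). It was lower in siLATS1 than in siLATS2 (log2 fold change -0.94). After siLATS2, 0 of the 14 passed the unadjusted threshold against siControl, where 0.271% of all tested genes did.

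Of 27 tested regulators of plasma protein genes, 2 rose in siLATS1 and 0 fell, where 2.33% of all tested genes rose and 0.589% fell. ONECUT1 (HNF6) rose from 17.1 CPM to 26.7 CPM (log2 fold change 0.59 ± 0.21, SE), and IL6R, the interleukin-6 receptor, from 3.67 CPM to 5.98 CPM (0.59 ± 0.19, SE). Leaving out siControl replicate 1, ONECUT1 stayed called at 0.58 and IL6R, at 0.49, did not. HNF4A was at 252 CPM and 262 CPM (log2 fold change 0.091 ± 0.23, SE). ZHX2 and ZBTB20, known repressors of AFP in adult liver, had log2 fold changes of 0.14 and -0.13 in siLATS1, and neither was called. Against siLATS2, ONECUT1 and CEBPD were higher in siLATS1, as were 1.34% of all tested genes. CEBPD, at 2.33 to 6.25 CPM over all samples, overlapped between these groups (log2 fold change 0.67). CEBPA, of the same family, lay lower in all siLATS1 than in all siLATS2 samples, as did 6.63% of all genes. Its log2 fold change was -0.345 against siLATS2, and -0.22 against siControl (-0.54 without siControl replicate 1), and it was not called.

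Of 9 tested hepatocyte markers, APOB was the 1 that fell in siLATS1, from 3482 CPM to 2134 CPM (log2 fold change -0.70 ± 0.25, SE), and APOA2 was the 1 that rose in siLATS2, from 73.1 CPM to 114 CPM (log2 fold change 0.68). Of all tested genes 0.589% fell in siLATS1 and 0.217% rose in siLATS2 at the same threshold. The calls of APOB and APOA2 were both lost without siControl replicate 1. That library held the highest APOB level of all samples, 4572 CPM, and the lowest APOA2 level of siControl, 51.3 CPM. The effect of leaving out other libraries was not examined for these genes. With siControl replicate 1 left out, APOB was at -0.50 in siLATS1 and APOA2 at 0.43 in siLATS2, neither called. In siLATS1 APOA2 then fell (-0.72) and APOH rose (0.75). Against siLATS2, APOA2 was the 1 hepatocyte marker called, lower in siLATS1 with no overlap (-1.15 ± 0.22, SE; adjusted p = 0.25 in limma). In the fit without siControl replicate 1 this difference was also -1.15, with an adjusted p of 0.024 in limma. The summed level of the 10 hepatocyte markers ran from 3891 to 6105 CPM in siControl, 2798 to 3897 CPM in siLATS1 and 3506 to 4426 CPM in siLATS2. APOB alone, at 1577 to 4572 CPM over all samples, made up most of this sum, which therefore mainly repeats the APOB values. The median log2 fold change of the 9 tested hepatocyte markers in siLATS1 was 0.15. Among 14 markers of other cell types, 8 were tested and PECAM1 fell in siLATS1, from 2.29 CPM to 1.01 CPM, as it did without siControl replicate 1 (-0.64), where CD14 fell too (-1.01). Their summed level was 227 to 396 CPM, 298 to 409 CPM and 326 to 458 CPM in the 3 groups, and 9.31 to 29.4 CPM, 14.2 to 36.8 CPM and 16.7 to 27.7 CPM without EPCAM, KRT19 and SOX9. The part of these shifts in the values of the 10 genes was not tested.

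**Figure D4:**
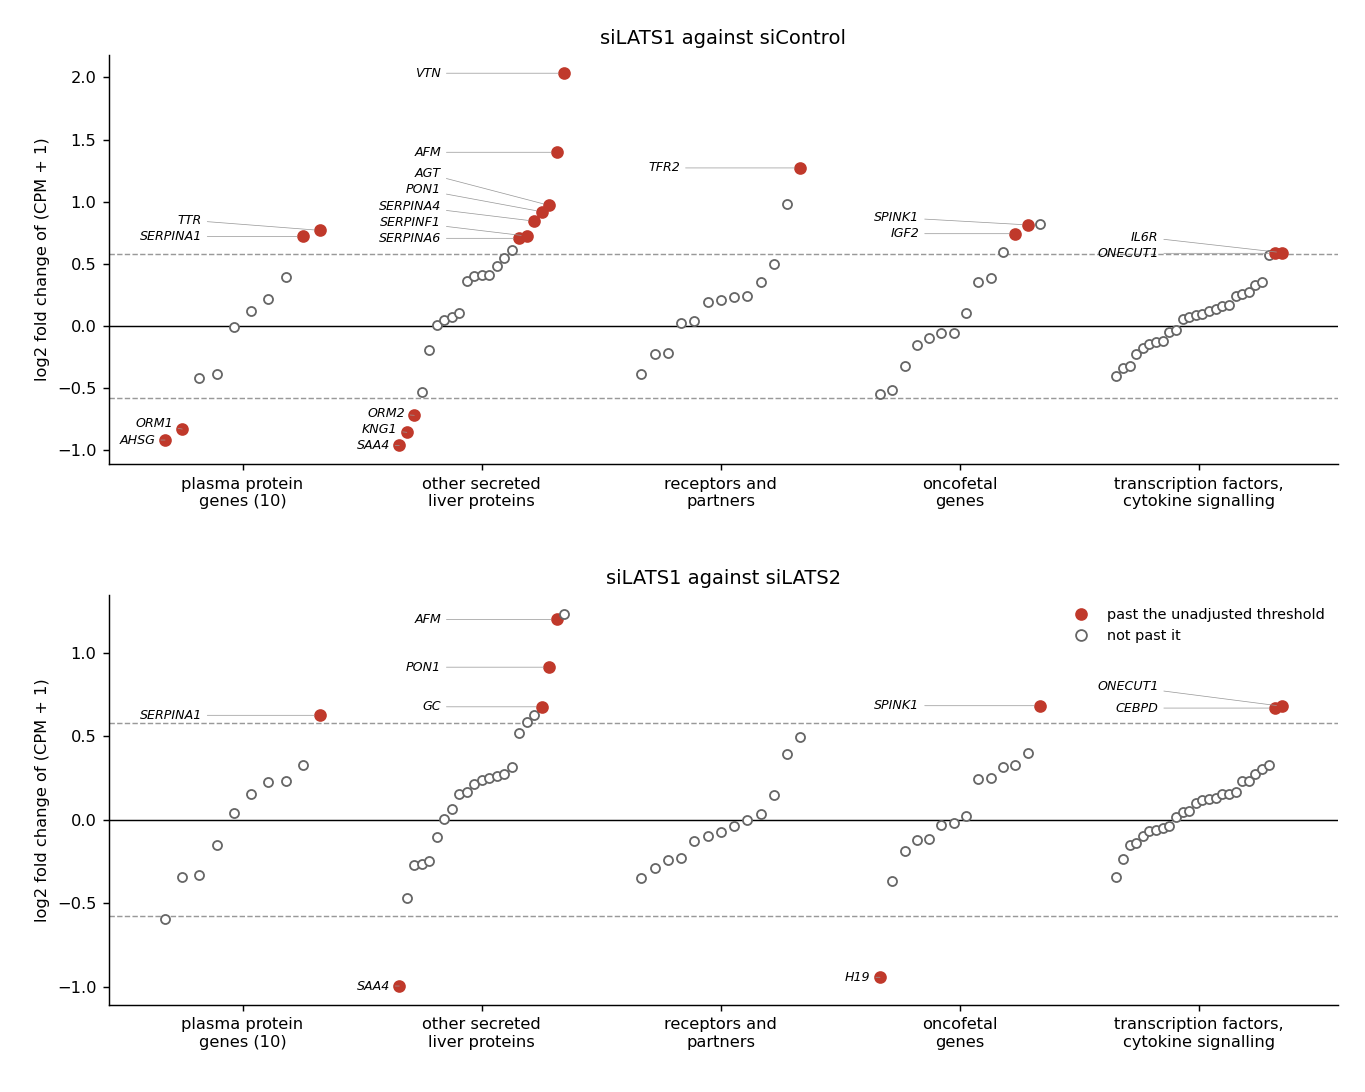
Log2 fold change of CPM + 1 for siLATS1 against siControl (top) and against siLATS2 (bottom), 1 point per tested gene reported here, sorted within each list; filled red points passed the unadjusted threshold and carry their symbols, and dashed lines mark the fold limit of 0.58. Against siControl, 10 of 23 other secreted proteins are filled in both directions, VTN and AFM highest, and 4 of the 10 plasma protein genes.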

How the data were processed

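RNA from 9 Huh7 samples was sequenced, 3 for each siRNA. The authors aligned single-end reads with STAR (hg19, unique hits only), counted reads in exons of RefSeq genes by QuasR, and deposited 1 CPM value per gene and sample. Whether counting used strand is not given in the sources used here. The labels name a TruSeq Stranded total RNA kit with Ribo-Zero Gold, the Methods poly-A selected RNA. The Methods call the samples biological triplicates, and p-values measure only the spread between these samples.

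All deposited CPM values were whole multiples of what 1 read is worth (100% within 0.1 reads), which gave counted depths of 23547579 to 32193229 reads. CPM were divided by TMM factors (0.957 to 1.057) computed without weights over all 20575 genes. The 12901 genes that reached 1 CPM in 3 or more samples were fitted as log2(CPM + 1) in limma 3.58.1 with a mean-variance trend, 1 mean per group and all 9 samples, with Benjamini-Hochberg adjustment. Fold changes on this scale understate those of low genes. The threshold was an unadjusted p under 0.05 with an absolute log2 fold change of 0.58 or more. Unadjusted p-values of limma set this call, and adjusted values are printed. Because the authors deposited CPM and not counts, limma was used in place of the count test of the Methods. edgeR 4.0.16 and DESeq2 1.42.0 were run on the recovered reads as alternatives. Permutation tests were exact and two-sided. The limma step was tested on simulated data that held no outlying library, so that test does not cover a sample such as siControl replicate 1. Gene positions and lengths are those of GENCODE for GRCh37 and promoters those of RefSeq for GRCh38.p14. The members and gene lists were chosen with earlier results of these data known. From each list every gene past the unadjusted threshold, and at most 3 others, were to be named; further genes (such as ZHX2, ZBTB20, HNF4A, CRP) were named for their known roles after their values were seen. Some genes of the lists are not reported here and are left out of the plot of gene lists.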

Additional observations from a re-analysis of the deposited data

Results flagged for a closer look

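The difference of SERPINA1 between the 2 knockdowns is listed because a direct test of siLATS1 against siLATS2 passed the unadjusted threshold. The log2 fold change was 0.63 ± 0.21 (SE; adjusted p = 0.89 in limma), higher in 3 of 3 siLATS1 samples than in every siLATS2 sample. It was no longer called without siLATS1 replicate 3 (0.52) or without siLATS2 replicate 3 (0.575). No group was large enough for a test of single outlying samples, since each held 3.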

How the results depend on the processing

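LATS1 kept its direction and call under every alternative run. Of the members, ORM1 kept its call in siLATS1 in all of them (log2 fold change -0.94 to -0.73 with 1 library left out), and SERPINA1 lost it only without siControl replicate 1 (0.52 to 0.89 over the fits that left out 1 library). TTR in siLATS1 ranged from 0.39 to 0.94 and lost its call without siControl replicate 1, siLATS1 replicate 1, siLATS1 replicate 3 or siLATS2 replicate 1, with edgeR (0.67) and with the 6 samples alone (0.75). AHSG ranged from -1.33 to -0.67 in siLATS1, where its call ended without siControl replicate 2, siControl replicate 3 or siLATS1 replicate 2, from -0.74 to -0.088 in siLATS2 and from -0.74 to -0.44 against siLATS2, where it was called with the 6 samples alone and without siControl replicate 1 (both -0.59). RBP4 ranged from -0.70 to -0.31 in siLATS1 and from -0.36 to 0.035 in siLATS2, and ORM1 from -0.65 to -0.29 in siLATS2, where it was called without siControl replicate 3 or siLATS2 replicate 2. SERPINA1 ranged from -0.10 to 0.25 in siLATS2 and from 0.52 to 0.72 against siLATS2, where its call ended without siLATS1 replicate 3 or siLATS2 replicate 3. The log2 ratio of AFP to ALB differed by -0.32 to -0.12 in siLATS1, -0.41 to -0.21 in siLATS2 and 0.049 to 0.13 between the knockdowns with 1 library left out.

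Signs of uncalled members turned in part. With the CPM as deposited AFP in siLATS1 was 0.081 and ALB in siLATS2 was 0.0011. With 1 library left out, siLATS1 against siControl ran from -0.22 to 0.27 for AFP, -0.026 to 0.51 for ALB, -0.082 to 0.60 for HPX and -0.037 to 0.25 for TF. For siLATS2 it ran from -0.26 to 0.27 for ALB and -0.19 to 0.080 for TF. Between the knockdowns it ran from -0.18 to 0.28 for HP and -0.43 to 0.050 for HPX. The causes were not tested.

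Counts of called members with 1 library left out were 3 to 4 in siLATS1, 0 to 1 in siLATS2 and 0 to 2 between the knockdowns, where the 6 samples alone gave 2. After adjustment DESeq2 called 1 member in siLATS1, ORM1. Over all genes, unadjusted calls in siLATS1 numbered 243 with a minimum of 5 CPM, at which HP was not tested, and 234 to 730 with 1 library left out. Adjusted calls in siLATS1 numbered 6 with 5 CPM, 5 with edgeR, 166 with DESeq2, 0 with the 6 samples alone, and 0 to 40 with 1 library left out, 40 being without siControl replicate 1. Unadjusted calls in siLATS2 numbered 23 with 5 CPM, 72 with a pseudocount of 0.1, 68 with edgeR, 70 with DESeq2, 22 with the 6 samples alone, and 11 to 69 with 1 library left out. Between the knockdowns, unadjusted calls numbered 139 with 5 CPM and 194 to 308 with 1 library left out. Adjusted calls there numbered 3 with no filter, 100 with DESeq2, and 0 to 19 with 1 library left out.

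Replicate numbers 1 to 3 recur in each group, but samples with the same number deviated together only in part. Of 9 such pairs, 5 had an r over 0.1, with a range from -0.874 to 0.92. The mean r was 0.205 for pairs of the same number and -0.104 for pairs of different numbers. In all, 6 of 9 samples correlated best with their own number, and the main fit took no account of the numbers. With the replicate number as a block, 400 genes were called in siLATS1, 46 in siLATS2 and 256 between the knockdowns, against 376, 35 and 240, with 0 after adjustment in siLATS1. The log2 fold change of AHSG in siLATS1 stayed at -0.92 but was no longer called in this fit, and 3 members were called. For the ratio of AFP to ALB, paired sign flips gave exact p = 0.25, 0.25 and 0.5. At 21 to 70 reads per library, depth limits HP; the other members held at least 314 reads in every library.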
